A study of Caenorhabditis elegans with 9 samples.

Results

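The vitellogenin genes of Caenorhabditis elegans, vit-1 to vit-6, were followed through RNA of sorted oocyte P-bodies, dissected whole oocytes and extracts of whole animals. The genes were chosen by their symbols, and all 6 were found among the 46778 gene identifiers of the deposited tables and passed the filter on low counts, as did 10162 genes in all. Each of the groups had 3 libraries. All came from female animals on day 3 of a strain labelled "fog2; car1:GFP, pgl1:RFP", with the stage given as L4 and as oocyte arrest. XX animals mutant for fog-2 make no sperm, CAR-1 is a protein of P-bodies, the cytoplasmic granules of RNA and protein, and PGL-1 is a protein of germ granules. P-bodies were sorted by FAPS, fluorescence-activated particle sorting, and labelled as germline. RNA extraction included reversal of the crosslinks of fixed fractions. Oocytes were dissected and were also labelled as germline. Whole-animal extracts, labelled somatic and germline, were neither dissected nor sorted and so still held the oocytes. In RNA extraction the removal of debris by centrifugation was skipped for the P-bodies alone. No label says that libraries of a group came from separate cultures or animals, so the p-values measure the spread between these libraries, which may be technical.

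Vitellogenins are large secreted lipid-carrying proteins, the main proteins of yolk. The adult intestine makes them and releases them into the body cavity, and the oocyte takes up the finished protein through the receptor RME-2. Their messages are therefore known as intestinal messages, whereas the messages of regulators such as oma-1 or spn-4 are made in the germline and stored in the oocyte. Within the family vit-1 and vit-2 are closely related, as are vit-3, vit-4 and vit-5, while vit-6 is the most divergent member.

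On the WBcel235 build, 5 of the 6 genes lie on chromosome X, and vit-6 lies alone on chromosome IV. By the deposited coordinates vit-1 (WBGene00006925) spans X 7727889 to 7733168, vit-2 (WBGene00006926) X 5101032 to 5106173 and vit-5 (WBGene00006929) X 3403471 to 3408603, all on the plus strand. On the minus strand, vit-4 (WBGene00006928) spans X 3558839 to 3563974 and vit-3 (WBGene00006927) X 3567355 to 3572549. In the annotation only 3390 bases separate vit-3 from vit-4, the closest pair of the family. The gene on chromosome IV, vit-6 (WBGene00006930), spans 8261134 to 8266462 on the plus strand. All are protein coding and alike in build, with 5 or 6 exons and an exonic length of 4870 bases in vit-5 to 5088 bases in vit-1. Other genes overlap the family on the opposite strand: the coding gene C42D8.9 shares 11 bases with vit-2, and the noncoding genes T27A10.8 and F59D8.3 share 171 bases with vit-3 and 150 bases with vit-4. These neighbours held 0 to 8 counts in any library.

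Related copies can share reads, so the values of vit-1 to vit-5 are uncertain one by one. The deposited counts and the deposited TPM, a level corrected for gene length, were compared for each member as counts per TPM and exonic base. Relative to the median coding gene this quotient lay between 0.964 for vit-4 and 1.07 for vit-3 over all 6 genes and 9 libraries.

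Libraries held 27946955 to 78685226 counts. Of these, ribosomal RNA genes held 29.8% to 38.0% in the P-body libraries, 86.8% to 88.8% in the oocyte libraries and 91.4% to 91.7% in the whole-animal libraries. They also held 22.4% to 31.7% of the deposited TPM in P-body, 78.7% to 81.4% in oocyte and 84.5% to 85.5% in whole-animal libraries, so TPM and library totals are both scales that include ribosomal RNA. TMM factors set the typical gene to no change. Scaling by library totals instead shifted the log2 fold change of the median gene by 2.50 (P-bodies against oocytes), by 0.68 (oocytes against whole animals) and by 3.18 (P-bodies against whole animals). Below, log2 fold changes use TMM factors and the value with library totals stands beside them.

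In whole animals the vitellogenins were among the most abundant messages of all. Ranked by mean TPM among 19725 coding genes, vit-6 was number 2, vit-5 number 3 and vit-2 number 4, with the elongation factor gene eef-1A.1 ahead of them. The 3 other members ranked 52 (vit-3), 113 (vit-4) and 177 (vit-1). In oocytes vit-2 ranked 132, vit-6 137 and vit-5 152, and in P-bodies vit-6 ranked 537, vit-5 609 and vit-2 689. The lowest member, vit-1, ranked 4860 in P-bodies, 3371 in oocytes and 177 in the whole animals. A rank within a group does not depend on how its libraries are scaled against others.

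By TPM, vit-6 stood at 311, 345 and 174 in P-bodies, 172, 79.4 and 155 in oocytes, and 1127, 979 and 863 in the whole animals. P-body values of vit-6 all lay above those of oocytes on this scale, and the whole-animal values lay above both. For vit-5 the TPM were 299, 297 and 184 in P-bodies, 162, 60.8 and 135 in oocytes, and 1115, 968 and 879 in the whole animals. Its groups did not overlap either. For vit-2 they were 271, 288 and 162 in P-bodies, 184, 94.4 and 139 in oocytes, and 1128, 854 and 796 in the whole animals, so that the lowest P-body library fell among the oocytes.

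The other members were scarcer in every library. The TPM of vit-3 were 61.98, 63.7 and 38.8 in P-bodies, 36.3, 17.9 and 20.7 in oocytes and 210, 214 and 186 in the whole animals. Those of vit-4 were 36.4, 34.9 and 22.6 in P-bodies, 23.3, 9.64 and 14.5 in oocytes and 108, 122.4 and 113 in the whole animals. Those of vit-1 were 25.3, 28.7 and 13.6 in P-bodies, 15.9, 7.64 and 8.64 in oocytes and 79.8, 69.8 and 56.7 in the whole animals. Whole animals stood above every other library for all 3, and only for vit-3 were P-bodies and oocytes also apart.

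**Figure D1:**
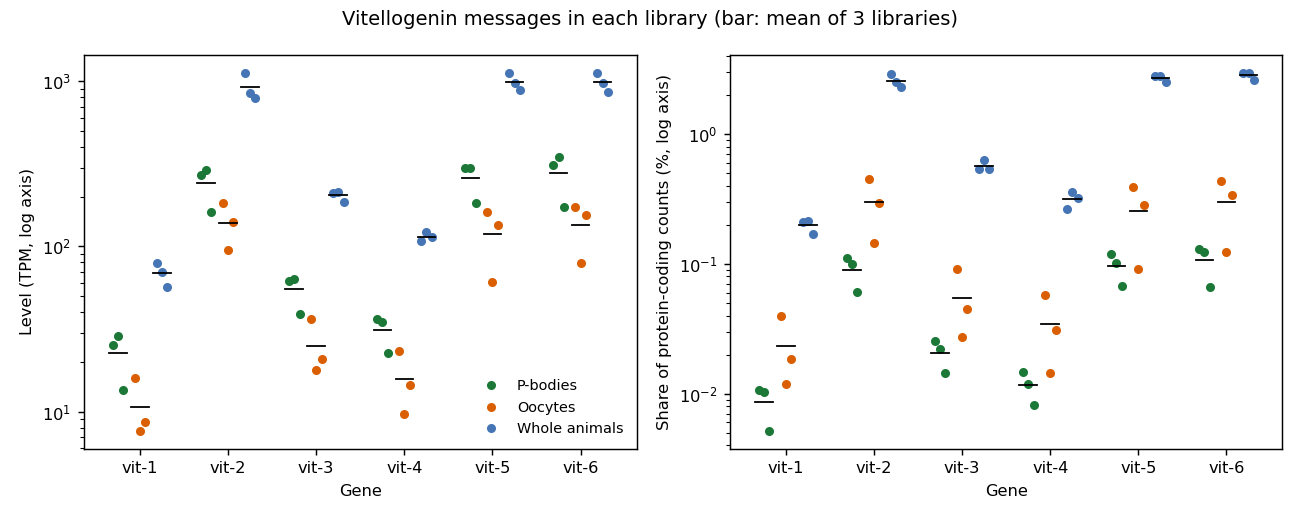
Level of each vitellogenin gene in every library, as TPM (left) and as share of protein-coding counts (right), both on log axes. Points are libraries and bars are means of 3. Whole animals are highest throughout, while P-bodies lie mostly above oocytes in TPM and mostly below them in share of coding counts.

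Set against the coding counts alone, the order of P-bodies and oocytes turned. The share of vit-6 in coding counts was 0.131%, 0.124% and 0.0669% in P-bodies, 0.439%, 0.125% and 0.342% in oocytes, and 2.98%, 2.99% and 2.61% in the whole animals. Oocyte library 2 lay inside the range of the P-bodies, and the other oocyte libraries lay above it. All 6 genes together took 0.411%, 0.370% and 0.222% of coding counts in the P-bodies, 1.47%, 0.413% and 1.02% in oocytes, and 9.71%, 9.54% and 8.51% in the whole animals. Oocyte library 2 stood just above the highest P-body library here. As a mean, that was 0.335% ± 0.0993 in P-bodies, 0.967% ± 0.531 in oocytes and 9.25% ± 0.651 in the whole animals (SD, n = 3 each).

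Dissected oocytes were set against animals that still held their soma. All 6 members were lower in oocytes, by 9.21-fold (vit-1) to 11.7-fold (vit-5), with edgeR's quasi-likelihood test and a Benjamini-Hochberg adjusted p under 0.05. Of all tested genes 13.2% were called here, 12.5% lower and 0.709% higher. For vit-5, counts scaled to library size with TMM factors (CPM) averaged 425 ± 256 in oocytes and 4965 ± 449 in the whole animals (SD, n = 3 each). Its log2 fold change was -3.55 ± 0.48 (SE, adjusted p = 0.00193 by edgeR), or -2.93 with library totals. The CPM of vit-2 averaged 499 ± 263 in oocytes and 4728 ± 713 in the whole animals, a log2 fold change of -3.24 ± 0.40 (adjusted p = 0.000769 by edgeR), or -2.62 with library totals. The values of the family were close together, from -3.55 to -3.20, with standard errors of 0.40 to 0.51. The members moved together between libraries, so these errors do not measure how far members differ from each other. The median of the family was -3.34, beside 0.00 for all genes, and no library of oocytes overlapped one of whole animals for any member. How many of all tested genes lay apart in the same way is not given here.

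P-bodies were also set against whole animals. With TMM factors all 6 members were lower in P-bodies, by 23.65-fold (vit-1) to 29.7-fold (vit-2), among 66.8% of all tested genes called, 38.9% lower and 27.9% higher. The CPM of vit-2 averaged 159 ± 44.4 in P-bodies and 4728 ± 713 in whole animals, a log2 fold change of -4.89 ± 0.43 (adjusted p = 5.92e-06 by edgeR), or -1.70 with library totals. The CPM of vit-1 averaged 15.3 ± 5.32 in P-bodies and 363 ± 52.3 in whole animals, a log2 fold change of -4.56 ± 0.54 (adjusted p = 0.000203 by edgeR), or -1.37 with library totals. With library totals the whole family lay at -1.70 to -1.37 in a comparison whose median gene then lay at 3.00. The members were thus further from whole animals in P-bodies than in oocytes with TMM factors and nearer with library totals, in comparisons that share the whole-animal libraries.

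Between P-bodies and oocytes the direction turned with the scale. With TMM factors all 6 were lower in P-bodies, by 2.51-fold (vit-5) to 3.14-fold (vit-2), and with library totals all 6 were called higher. Of all tested genes 55.5% were called with TMM factors, 28.8% lower and 26.7% higher, so a call was the more common outcome in this comparison. The values with library totals were log2 fold changes of 0.92 (vit-2) to 1.24 (vit-3 and vit-5), in a comparison whose median gene then lay at 2.44. The log2 fold changes with TMM factors were -1.65 ± 0.37 for vit-2 (adjusted p = 0.00425 by edgeR) and -1.41 ± 0.41 for vit-6 (adjusted p = 0.0166 by edgeR). For vit-3 the value was -1.33 ± 0.42 (adjusted p = 0.0280 by edgeR), for vit-4 -1.49 ± 0.47 (adjusted p = 0.0307), for vit-5 -1.33 ± 0.44 (adjusted p = 0.0316) and for vit-1 -1.36 ± 0.48 (adjusted p = 0.0453). By CPM, every P-body library lay below every oocyte library for vit-1 to vit-4, and the groups overlapped for vit-5 and vit-6. The share of all tested genes that lay apart in this way is not given here, so this only describes the members. The members lay between the percentiles 15.4 and 19.9 of the log2 fold changes of all tested genes.

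With TMM factors, the calls in P-bodies against oocytes depended on single libraries except that of vit-2. Without P-body library 1, 2 or 3 only vit-2 and vit-6 were called, with a highest adjusted p among the members of 0.0881, 0.0802 and 0.118 by edgeR. Without oocyte library 3 only vit-2 and vit-3 were called (highest adjusted p = 0.0996 by edgeR). Without oocyte library 1, which held the most vitellogenin RNA of the oocytes, vit-2, vit-3, vit-4 and vit-6 were called and the log2 fold changes shrank to between -1.16 and -0.68. Without oocyte library 2 all 6 were called (highest adjusted p = 0.0263 by edgeR). With no filter on low counts 0 of 6 passed (adjusted p = 0.0534 to 0.181 by edgeR, log2 fold changes -1.42 to -1.10), though 3 had an unadjusted p under 0.05, and DESeq2 called all 6 after the filter. The log2 fold change of vit-2 lay between -1.85 and -1.16 without any 1 library.

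**Figure D2:**
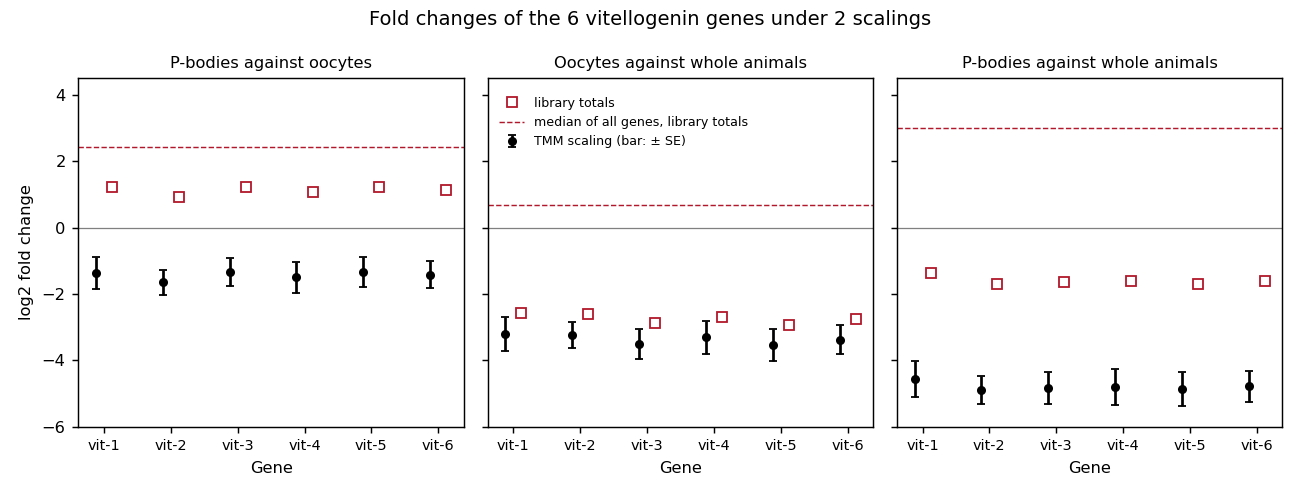
Log2 fold change of each vitellogenin gene in the 3 comparisons, with TMM factors (filled, bars are SE) and with library totals (open squares), on 1 shared axis. The dashed line is the median of all genes with library totals. P-bodies against oocytes change sign with the scaling (-1.65 to -1.33 against 0.92 to 1.24), and both other comparisons stay below 0.

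Ratios between sums of counts within a library need no scaling between libraries. A list of 36 other genes taken as intestine markers, among them the gut protease gene asp-1, the gut esterase gene ges-1 and the intermediate filament gene ifb-2, was summed in each library. For every 100 counts of these markers there were 1915, 2428 and 1573 counts of vitellogenins in the P-bodies, 1949, 2199 and 1702 in oocytes, and 2223, 2204 and 2102 in the whole animals. The ranges of all 3 groups overlapped, with means of 1972 ± 430 in P-bodies, 1950 ± 249 in oocytes and 2176 ± 65.0 in the whole animals (SD, n = 3 each). The marker spl-1 did not fall as most others did, with mean CPM of 5.56 in P-bodies, 8.09 in oocytes and 9.01 in the whole animals. It held 1553 of the list's 9726 counts in P-body library 1 and 1626 of 6683 in P-body library 3. In oocyte library 2 it held 155 of 670, and in whole-animal library 1 it held 170 of 17476. It thus lowered the ratio unevenly between groups, and the ratio without it is not given here. For every 100 counts of 35 oocyte messages, in contrast, there were 9.10, 8.38 and 5.03 counts of vitellogenins in the P-bodies, 42.3, 11.2 and 26.8 in oocytes, and 330, 342 and 294 in the whole animals. No 2 groups overlapped in this ratio.

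Gene by gene, with TMM factors, most intestinal markers were lower in the same comparisons. Of the 36, 33 passed the filter, and 0 were called higher in each comparison by edgeR, as by DESeq2 or at an unadjusted p under 0.05. For oocytes against whole animals 23 of the 33 were called lower, with a median log2 fold change of -3.31 (-2.69 with library totals). For P-bodies against whole animals 31 were lower, and the median was -4.91 (-1.72 with library totals). For P-bodies against oocytes 19 were lower with TMM factors, a count that was 10 without oocyte library 1, P-body library 2 or P-body library 3, and the median was -1.61 (0.96 with library totals). The family's medians with TMM factors were -3.34 (oocytes against whole animals), -4.82 (P-bodies against whole animals) and -1.39 (P-bodies against oocytes). Those of all tested genes were 0.00, -0.18 and -0.06 for the comparisons in that order, and 12.5%, 38.9% and 28.8% of all tested genes were called lower. The list shares elt-2 and elt-7 with the list of yolk production below.

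Among the markers, cpr-4, a cathepsin B gene, had the lowest log2 fold change between P-bodies and oocytes. It averaged 1.13 ± 0.186 CPM in P-bodies and 7.52 ± 5.39 CPM in oocytes (SD, n = 3 each), a log2 fold change of -2.77 ± 0.62 (adjusted p = 0.00818 by edgeR, -0.20 with library totals). The acyl-CoA dehydrogenase gene acdh-1 and the peptide transporter gene pept-1 had the lowest values between oocytes and whole animals. Levels of pept-1 averaged 0.171 ± 0.0634 CPM in oocytes and 2.35 ± 0.594 CPM in the whole animals, a log2 fold change of -3.85 ± 0.55 (adjusted p = 0.000615 by edgeR, -3.16 with library totals). For acdh-1 it was -5.42 ± 0.88 (adjusted p = 0.00473 by edgeR, -4.79 with library totals).

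The list of 35 oocyte messages differed from the intestine markers. In oocytes against whole animals 0 of 35 were called by edgeR (median log2 fold change 0.17, or 0.85 with library totals). Of all tested genes 12.5% were called lower there and only 0.709% higher, so 0 called higher does not set the list apart. At an unadjusted p under 0.05, 9 were higher, DESeq2 called 11 higher, and edgeR called 2 without oocyte library 2. In P-bodies 18 were higher and 8 lower than in oocytes (median 0.40, or 2.91 with library totals), where 26.7% of all tested genes were higher and 28.8% lower. The 35 oocyte messages took 4.45% ± 0.0621 of coding counts in the P-bodies, 3.65% ± 0.158 in oocytes and 2.87% ± 0.0773 in the whole animals (SD, n = 3 each). The kinase gene mbk-2, which acts in the passage from oocyte to embryo, had the highest log2 fold change in P-bodies against oocytes (2.15, or 4.66 with library totals), with 457 ± 18.6 CPM in P-bodies and 103 ± 6.77 CPM in oocytes. It is uncertain, since a coding gene overlaps it on the opposite strand. The eggshell gene perm-4 was among the lowest (-4.44, or -1.94 with library totals), with 5.89 ± 1.65 CPM in P-bodies and 128 ± 46.1 CPM in oocytes. The lowest value of the list was that of perm-2 (-4.49, or -1.98, uncertain, overlapped on the opposite strand). The tissue that makes these messages was not tested.

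**Figure D3:**
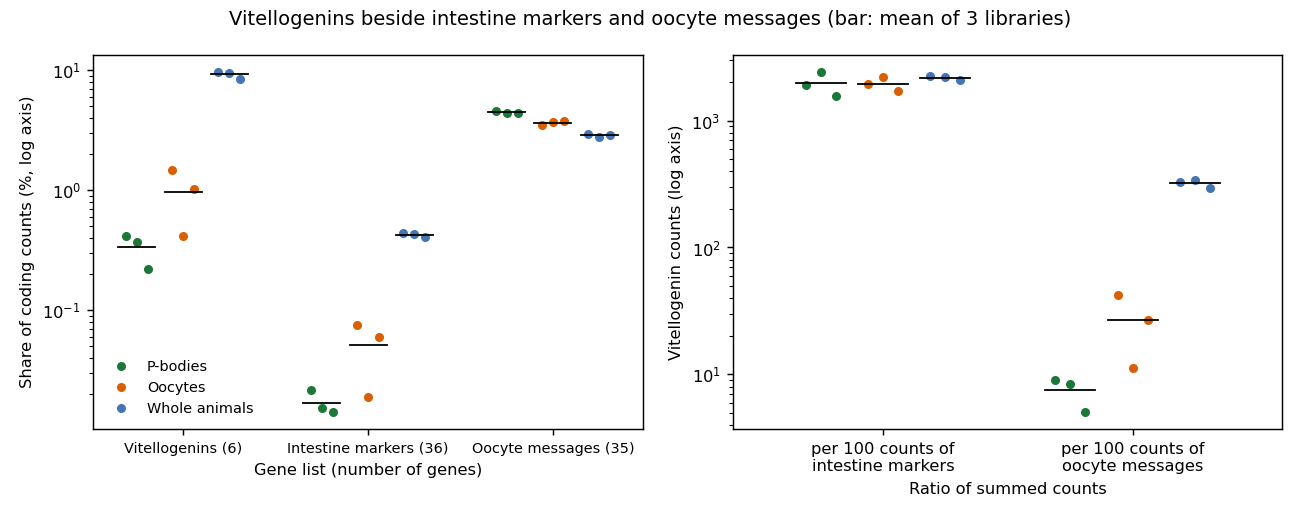
Left, summed share of coding counts taken by the vitellogenins, the intestine markers and the oocyte messages in each library. Right, vitellogenin counts per 100 counts of either list, with log axes throughout and bars for means of 3. The ratio to intestine markers lies at 1573 to 2428 in all 9 libraries, and that to oocyte messages separates the groups.

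The oocyte libraries differed among themselves in these messages more than the other groups did. The summed vitellogenin share of coding counts varied 3.56-fold between oocyte libraries, 1.85-fold between P-body libraries and 1.14-fold between whole-animal libraries. In each member, oocyte library 2 was lowest and library 1 highest, and for vit-5 the span was 4.30-fold. Intestine markers moved alongside, at 0.0755%, 0.0188% and 0.0597% of coding counts in oocyte libraries 1, 2 and 3, a 4.02-fold span. Some other somatic markers were also highest in oocyte library 1: hypodermis markers held 0.0536%, 0.0232% and 0.0139% in libraries 1, 2 and 3 (3.87-fold) and muscle markers 0.210%, 0.0801% and 0.0802% (2.62-fold). So were neuron markers, at 0.0203%, 0.0136% and 0.0159%. Sheath and spermatheca markers were lowest in library 1 (0.237%, 0.259% and 0.247%). Coelomocyte and excretory cell markers were highest in library 3 (0.0269%, 0.0250% and 0.0316%). The oocyte messages spanned 1.09-fold in the same libraries.

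Markers of other somatic tissues were present in the germline groups at uneven levels. The summed range of 17 muscle markers was 0.0203% to 0.0256% of coding counts in the P-bodies, 0.0801% to 0.210% in the oocytes and 0.411% to 0.517% in the whole animals. That of the 36 intestine markers was 0.0141% to 0.0215% in P-bodies, 0.0188% to 0.0755% in the oocytes and 0.405% to 0.437% in the whole animals. Of the intestine markers, fat-7 and lipl-4 were at 0 in every oocyte library and none was at 0 in every P-body or every whole-animal library. In P-bodies fat-7 held only 2, 0 and 4 counts and lipl-4 0, 8 and 0. P-body libraries held 45262531 to 54937023 coding counts and oocyte libraries 3566621 to 7905996, so these zeros do not show absence from oocytes. The gut transcription factor gene elt-2 held 0 to 20 counts in any library. The esterase gene ges-1 stood at 0.183, 0.170 and 0.143 CPM in the P-bodies, 0.389, 0.299 and 0.296 in oocytes, and 3.62, 5.28 and 4.42 in the whole animals. Its groups did not overlap, and it was lower in P-bodies than in oocytes with TMM factors (log2 fold change -0.97 ± 0.35, adjusted p = 0.0327 by edgeR, 1.53 with library totals). Fewer cells of a type and less RNA per cell cannot be told apart in such samples, and the part of intestinal RNA in the vitellogenin values was not tested.

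Markers of the other somatic tissues differed from list to list. With TMM factors, 15 of 17 muscle markers were lower in P-bodies than in oocytes (median log2 fold change -2.80, or -0.24 with library totals). Of 10 tested sheath and spermatheca markers 7 were lower and 1 higher (-1.69, or 0.80), and of 11 hypodermis markers 4 were lower and 1 higher, with 2 lower by edgeR without oocyte library 2 or P-body library 1 and 0 lower without oocyte library 1, P-body library 2 or P-body library 3 (-1.29, or 1.15). Of 13 neuron markers 2 were higher (-0.15, or 2.36), and of 5 coelomocyte and excretory cell markers 2 were higher and 1 lower (-0.10, or 2.40). Of all tested genes 26.7% were higher and 28.8% lower in this comparison. The neuron genes were flp-1 (0.0418 CPM in P-bodies, 0 in oocytes) and unc-119 (28.3 in P-bodies, 11.2 in oocytes, 8.80 in whole animals). The level of flp-1 was near the floor and oocyte libraries held fewer coding counts, so its 0 does not show absence. The 2 higher coelomocyte markers were cup-5 and clh-3, at 14.9 and 13.6 CPM in oocytes and 14.0 and 12.6 in whole animals. Coding genes on the opposite strand overlap flp-1 and cup-5, so both are uncertain. Only 1 neuron marker was higher without oocyte library 3, P-body library 1 or P-body library 2, and the 1 lower coelomocyte and excretory cell marker became 2 without oocyte library 1 or 2 and 0 without oocyte library 3, P-body library 2 or P-body library 3. In oocytes 13 of 17 muscle markers and 9 of 13 neuron markers were lower than in whole animals (medians -1.90 and -3.49, or -1.26 and -2.79 with library totals), where 12.5% of all tested genes were lower. The muscle count was 8 without oocyte library 2, whole-animal library 1 or whole-animal library 2. As a share of coding counts, muscle markers together lay 3.81-fold higher in whole animals than in oocytes, beside 9.57-fold for vitellogenins and 8.27-fold for intestine markers. They lay 19.8-fold higher in whole animals than in P-bodies, beside 27.7-fold for vitellogenins and 25.06-fold for intestine markers. The other somatic lists differed less. In whole animals over oocytes they stood at 3.20 (hypodermis), 0.893 (sheath and spermatheca), 1.71 (neurons) and 1.04 (coelomocytes and excretory cell). For whole animals over P-bodies they stood at 2.88, 1.47, 1.12 and 0.478 in that order. Gene by gene with TMM factors, the median log2 fold changes for P-bodies against whole animals were -4.15, -2.96, -4.11 and -0.54 in that order. With library totals they were -0.96, 0.22, -0.975 and 2.65. For oocytes against whole animals the medians were -2.25 (hypodermis), -0.12 (sheath and spermatheca) and -0.44 (coelomocytes and excretory cell). With library totals these were -1.64, 0.59 and 0.24. In P-bodies against whole animals 16 of 17 muscle markers were lower, where 38.9% of all tested genes were. Their median log2 fold change was -4.87 (-1.68 with library totals), between those of the vitellogenins and the intestine markers.

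The make-up of the vitellogenin RNA was nearly the same in every library. Together vit-2, vit-5 and vit-6 made 87.0% to 90.7% of the summed TPM of the family in each of the 9. The share of vit-6 was 30.9% ± 1.70 in P-bodies, 30.4% ± 2.03 in oocytes and 30.1% ± 0.377 in the whole animals (SD, n = 3 each). That of vit-2 was 27.2% ± 0.149 in P-bodies, 31.8% ± 2.85 in oocytes and 28.0% ± 1.72 in the whole animals, and that of vit-5 was 29.6% ± 1.42 in P-bodies, 26.1% ± 3.17 in oocytes and 30.1% ± 0.417 in the whole animals. Oocyte library 2, the lowest in vitellogenins, had the lowest quotient of vit-5 to vit-2 counts (0.633, against 0.865 and 0.951 in the other oocyte libraries, 1.01 to 1.11 in P-bodies and 0.972 to 1.11 in whole animals).

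The order of the scarcer members held in all libraries. In 9 of 9, vit-2 exceeded vit-3 (by 3.99 to 6.75 times in TPM), vit-3 exceeded vit-4 (1.43 to 1.95 times) and vit-4 exceeded vit-1 (1.22 to 1.996 times). Among the abundant members the order differed between libraries. TPM of vit-6 exceeded that of vit-5 in 7 of 9 libraries and that of vit-2 in 6 of 9, and vit-5 exceeded vit-2 in 5 of 9. Within groups some of these orders held in every library: vit-6 and vit-5 exceeded vit-2 in 3 of 3 P-body libraries, and in oocytes vit-5 was below vit-2 and below vit-6 in 3 of 3. These orders were not tested.

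**Figure D4:**
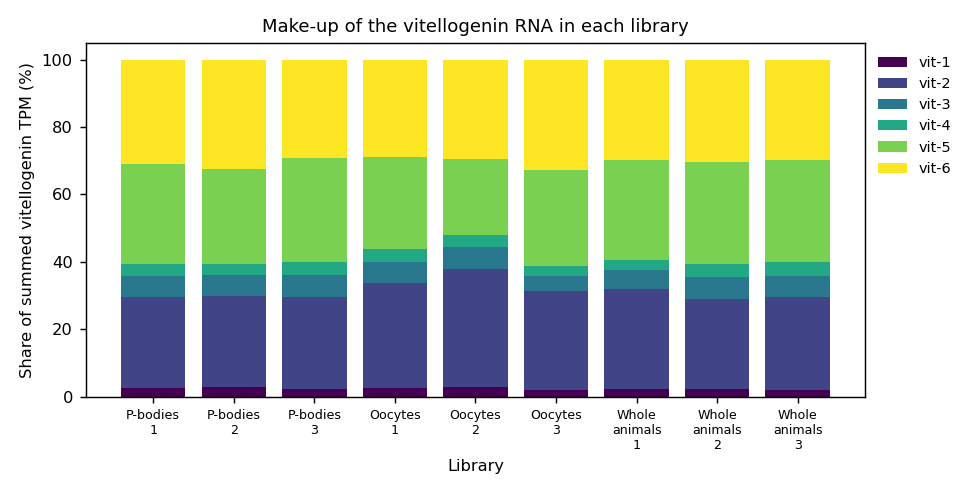
Share of each vitellogenin gene in the summed TPM of the family, stacked for each of the 9 libraries. The segments of vit-2, vit-5 and vit-6 fill 87.0% to 90.7% of every bar, and oocyte library 2 has the widest vit-2 segment.

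Across the 9 libraries the members followed each other closely, with Pearson r of log2(CPM + 1) between any pair from 0.992 to 0.998. This is a description of points that fall into 3 groups and share their libraries. Of 778 coding genes outside the family with at least 50 CPM in whole animals, 35 had an r above 0.95 with the mean of the members. The 8 most like it were npa-1, a precursor of lipid-binding proteins (r = 0.998, uncertain because a coding gene on the same strand overlaps it), the aspartyl protease genes asp-3 (0.996) and asp-4 (0.993, uncertain, overlapped on the opposite strand), the cathepsin B gene cpr-6 (0.995), the lectin gene clec-63 (0.994), the cathepsin L gene cpl-1 (0.994), the glyoxylate cycle gene icl-1 (0.992) and F57F5.1 (0.992). Only cpr-6 of these was in the list of intestine markers. The CPM of npa-1 averaged 5.57 in P-bodies, 16.98 in oocytes and 152 in the whole animals, and those of asp-3 averaged 6.38 in P-bodies, 21.9 in oocytes and 227 in the whole animals. With TMM factors npa-1 had a log2 fold change of -1.61 for P-bodies against oocytes (0.96 with library totals) and -3.16 for oocytes against whole animals (-2.54 with library totals). For asp-3 the values were -1.78 (0.81 with library totals) and -3.37 (-2.76 with library totals).

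Genes that serve yolk production were followed as a list. Of 16 genes for regulators of vitellogenin transcription, lipid synthesis and lipoprotein assembly, 15 were tested. In oocytes 5 of them were lower than in whole animals (median log2 fold change -0.55, or 0.11 with library totals), where 12.5% of all tested genes were lower. Among the 5 was dsc-4, which encodes a homolog of the large subunit of microsomal triglyceride transfer protein, the factor that loads lipid onto such proteins. It stood at 0.388 CPM in P-bodies, 0.874 in oocytes and 6.97 in the whole animals, with a log2 fold change of -3.01 ± 0.34 for oocytes against whole animals (adjusted p = 0.000150 by edgeR, -2.28 with library totals), and was named after its values were seen. The regulator gene pqm-1 had a log2 fold change of -3.64 ± 0.70 for oocytes against whole animals (adjusted p = 0.00436 by edgeR, -2.90 with library totals). In P-bodies against oocytes 6 of 15 were higher and 4 lower (median -0.26, or 2.25), where 26.7% of all tested genes were higher and 28.8% lower. Without oocyte library 3 or P-body library 3 only 3 were higher. The fatty acid synthase gene fasn-1 was the lowest, at 2.19 ± 0.365 CPM in P-bodies and 51.0 ± 8.37 CPM in oocytes (log2 fold change -4.54 ± 0.16, adjusted p = 4.1e-09 by edgeR, -2.03 with library totals). Between oocytes and whole animals its log2 fold change was -0.26 (adjusted p = 0.291 by edgeR, 0.43 with library totals).

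Few genes for yolk uptake were called between oocytes and whole animals. Of 22 genes for the receptor and the endocytic machinery, 1 was lower in oocytes (median log2 fold change 0.06, or 0.73 with library totals), where 12.5% of all tested genes were lower. The gene lower in oocytes was lrp-1, which encodes a megalin homolog of the hypodermis (-1.91 ± 0.31, adjusted p = 0.00469 by edgeR, -1.25 with library totals). In P-bodies against oocytes 11 were lower and 5 higher (median -0.36, or 2.15), where 28.8% of all tested genes were lower and 26.7% higher. The sorting nexin gene snx-1 was the lowest (-1.67 ± 0.13, or 0.84 with library totals) and dpy-23, of the AP2 adaptor, the highest (1.12 ± 0.12, or 3.64). The message of the receptor, rme-2, averaged 225 CPM in P-bodies, 391 in oocytes and 330 in the whole animals. Its log2 fold change was -0.80 ± 0.11 for P-bodies against oocytes (adjusted p = 4.18e-05 by edgeR, 1.71 with library totals). For every 100 counts of rme-2 there were 82.8, 80.5 and 48.4 counts of vit-2 in the P-bodies, 190, 62.7 and 130 in oocytes, and 1556, 1478 and 1257 in the whole animals. These are counts, not corrected for length. The ratio lay highest in whole animals, and oocyte library 2 lay within the range of the P-bodies.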

How the data were processed

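The authors deposited raw counts per gene (the table's name credits HTSeq) and a StringTie table with TPM, FPKM and mean coverage (a signal per base), with 1 column for each library. Of the deposited values, FPKM and coverage were not analysed. HISAT2 2.1.0 and the build WBcel235 are listed in the submitters' processing notes beside HTSeq, StringTie, DESeq2, FastQC and bcl2fastq, with no role given. The strand setting of the counting is not given in the sources used here, nor is the treatment of reads that fit several places. Libraries were made from total RNA with a stranded kit for small inputs and read as paired ends, per the labels' protocols.

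Counts were tested with edgeR 4.0.16 (R 4.3.3, quasi-likelihood, robust, TMM factors, all 9 libraries, no covariate, 6 residual degrees of freedom) after its filter by group (minimum count 10, minimum total 15). A gene was called where its p, adjusted by Benjamini-Hochberg over the 10162 tested genes, was under 0.05. DESeq2 1.42.0, limma 3.58.1 on log2(TPM + 1) and log2(TPM + 0.1), other scalings and filters, a fit with the replicate number as a block and fits without each library were alternatives. The test was tried on simulated data. Symbols came from the deposited table, with 11 restored from the Ensembl annotation (release 115), which held 46603 of 46778 identifiers. Members and lists were chosen with earlier results of these data known. All 6 members were named. From each other list the rule took at most 2 called genes with the largest change in each direction and comparison, and the 8 coding genes with at least 50 CPM in whole animals most correlated with the members' mean. The genes asp-1, ges-1, ifb-2, spl-1, fat-7, lipl-4, elt-7, oma-1, spn-4, eef-1A.1, rme-2 and dsc-4 were named outside this rule. No value column was left unmapped.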

Additional observations from a re-analysis of the deposited data

How the results depend on the processing

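All 6 members kept their direction and their call under every alternative in the comparisons with whole animals, with log2 fold changes of -4.13 to -2.58 for oocytes and -5.05 to -1.37 for P-bodies. P-bodies against oocytes reversed under 3 alternatives, library totals and TPM with either added constant. With library totals the log2 fold changes of vit-1 to vit-6 were 1.21, 0.92, 1.24, 1.08, 1.24 and 1.15, with log2(TPM + 1) they were 1.01, 0.79, 1.13, 0.99, 1.20 and 1.04, and with log2(TPM + 0.1) they were 1.07, 0.80, 1.16, 1.04, 1.21 and 1.05. These scales include ribosomal RNA. With only coding genes, with DESeq2, with a mean count of at least 50 or with thinned counts 6 were called lower, and with only the 2 groups compared 3 were.

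The number of genes called in oocytes against whole animals, 1344, was 6481 with library totals, 5606 and 5706 with log2(TPM + 1) and log2(TPM + 0.1), 619 with a mean count of at least 50, and 888 (without whole-animal library 2) to 1535 without 1 library. The cause was not tested. Genes higher in oocytes numbered 72 there, 379 with DESeq2, 5278 with library totals and 23 without whole-animal library 2. Between P-bodies and oocytes 2715 were higher and 2925 lower, and 8093 and 340 with library totals. Vitellogenins held 0.220% (P-bodies), 0.102% (oocytes) and 0.690% (whole animals) of all counts, and in whole animals 8.23% of counts without rRNA. Leaving out 1 library, the shares of coding counts ranged over 0.296% to 0.391% (P-bodies), 0.714% to 1.24% (oocytes) and 9.02% to 9.63% (whole animals). By counts in place of TPM, the make-up moved past its SD for vit-2 in P-bodies (27.01%) and for vit-5 (29.4%) and vit-6 (30.9%) in whole animals.

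Replicate numbers were not treated as pairs: same-numbered libraries correlated at -0.11 to 0.14 in their deviations from the group means, and in 10 of 18 checks a library correlated best with its own number. With the replicate block 5354 genes were called between P-bodies and oocytes, 1221 between oocytes and whole animals and 6650 between P-bodies and whole animals, and among members vit-4 alone missed the threshold in P-bodies against oocytes (-1.41, adjusted p = 0.0609 by edgeR). Counts of marker and yolk gene lists without each library were added after seeing the data.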
